A study of Mus musculus with 23 samples.

Results

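The collagen genes of this study were the 43 of 23284 genes in the deposited expression table whose symbols have the form Col, a number, a and a number. They were grouped by the structure that their proteins form. There were 11 genes of fibrillar collagens, 8 of basement membrane collagens (the 6 chains of type IV, Col15a1 and Col18a1) and 24 of other collagens. Transcriptomes came from 16 individual mesenchymal stem cells of mouse bone marrow (mMSC1 to mMSC16), from 5 individual HL-1 cardiomyocytes (HL1cm1 to HL1cm5) and from 1 bulk population control (PC) of either kind. Both cell types are labelled with the strain C57BL/6J. The mMSCs were bought, came from male mice of 3 months and were used at passages 6 to 11. HL-1 is a contracting line from an atrial tumour of mice that carried the simian virus large T antigen under an atrial natriuretic factor promoter. It was at passages 70 to 85 and served as the negative control for mMSC genes. The labels give no treatment for either group. In the paper, the captured HL1cm carried a green cytoplasmic dye, and each cell type was cultured by its own earlier protocol. Dye and culture cannot be told apart from cell type here. The labels name no separate cultures, so each cell type was treated as 1 sample, no test was made between them, and an SD between cells describes that sample only.

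Collagens are proteins of 3 chains wound into a helix, and each gene codes for 1 kind of chain. Fibrillar collagens such as types I, III and V build the fibres of bone, tendon, skin and scar, and are the main matrix product of mesenchymal cells, including the marrow stroma. Type IV collagen forms the sheet-like network of basement membranes, which surround heart muscle cells. Its chains come in fixed sets, of which alpha-1 with alpha-2 is the ubiquitous set and alpha-3 with alpha-4 and alpha-5 is best known from the kidney glomerulus. Type VI forms beaded microfibrils at the cell surface, and the remaining types decorate fibrils, anchor membranes or span the cell membrane.

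Levels are in FPKM, fragments scaled by exon length and by the mapped total of the library, so that different genes can be compared per length. For log2 values, anything below 1 FPKM was raised to 1, and a difference between cell types is the difference of mean log2 values. In 6 single-cell libraries (mMSC1, mMSC8, mMSC16, HL1cm1, HL1cm3 and HL1cm5) genes of small RNAs held over 50% of all FPKM, against 2.11% and 3.86% in the population controls. Between 5178 and 7241 genes reached 1 FPKM in a single cell, with the fewest in mMSC9. The cell labels were checked against markers. The summed level of 10 cardiomyocyte markers was 0 to 65.4 FPKM in mMSCs and 32948 to 60053 FPKM in HL1cm. The sum of 12 mesenchymal markers was 2140 to 6826 FPKM in mMSCs and 614 to 1063 FPKM in HL1cm, where Vim made up most of it and Ly6a, Pdgfra, Pdgfrb, Twist1 and S100a4 were listed at 0. Thy1 was listed at 0 in every single mMSC. Of 9 macrophage and haematopoietic markers, 4 reached 1 FPKM in at least 1 mMSC, mainly Cd14, with a sum of 3.10 to 369 FPKM, while Ptprc, Emr1, Lyz2 and Tyrobp were listed at 0. The sum was 0 to 1.10 FPKM in HL1cm, and the part of these genes in the collagen differences was not tested.

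Collagen genes were more numerous and more abundant in mMSCs, and the 2 cell types differed in which collagens they held. At 1 FPKM or more, 25 of the 43 genes were found in at least 1 mMSC and 11 in at least 1 HL1cm. These 2 counts are not alike, since they rest on 16 and 5 cells, and the same counts over all genes were not computed. A single cell held 9 to 17 of the genes (median 16) in mMSCs and 5 to 8 (median 6) in HL1cm. Over all genes, the median number at 1 FPKM or more in a cell was 6869.5 in mMSCs and 6736 in HL1cm. Another 13 genes were listed at 0 in all 23 libraries, among them Col11a2, Col24a1, Col15a1, Col14a1 and the type IX chains Col9a1 and Col9a2. These zeros also include Col13a1, Col22a1, Col23a1, Col25a1, Col6a4, Col6a6 and Col8a2. The summed level of all collagens was 361 to 1946 FPKM in mMSCs, with a median of 770 FPKM. In HL1cm it was 68.3, 202, 29.1, 154 and 148 FPKM in cells 1 to 5. No HL1cm reached the lowest mMSC in this sum. As a share of all FPKM the ranges overlapped, at 0.0143% to 0.248% in mMSCs and 0.00174% to 0.0262% in HL1cm. Without small RNA genes the shares were 0.0510% to 0.316% and 0.00580% to 0.0337%, without overlap. The controls gave 2082 FPKM for mMSC-PC and 211 FPKM for HL1cm-PC.

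**Figure D1:**
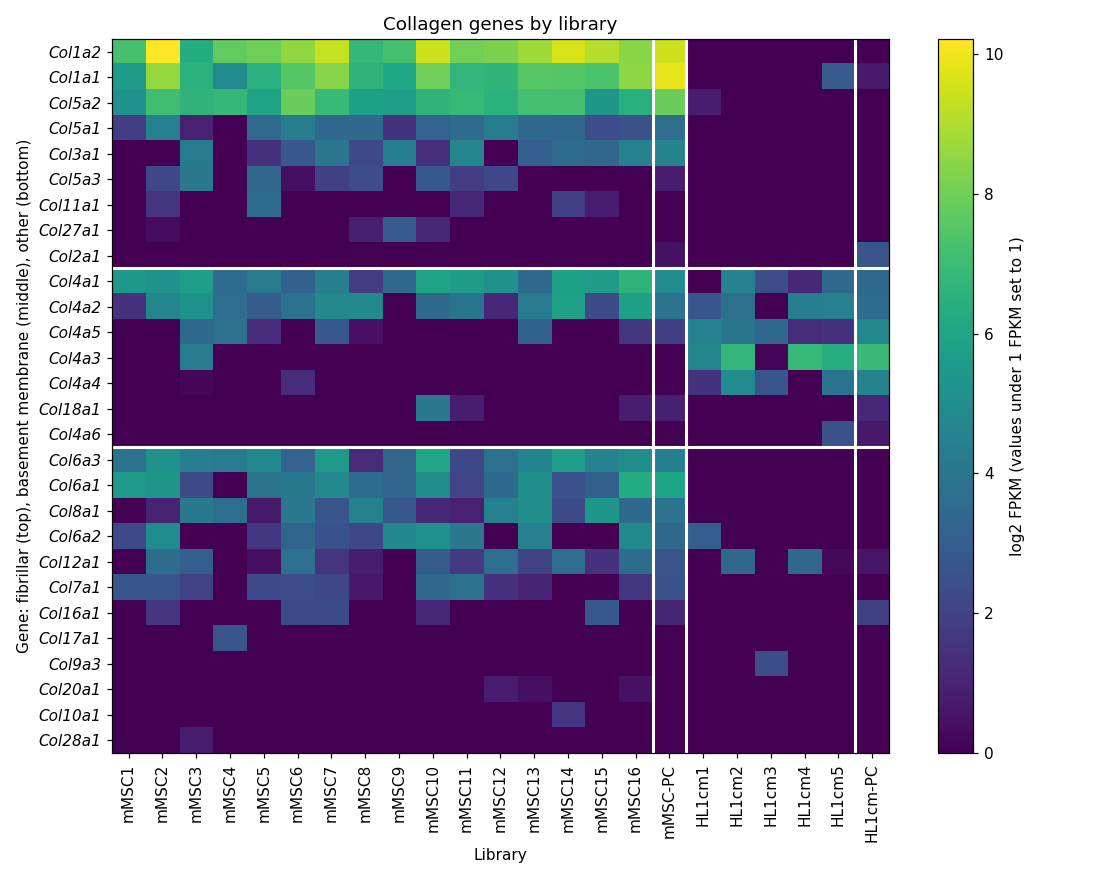
The 28 collagen genes that reached 1 FPKM in at least 1 library (rows, by structural class) in the 23 libraries (columns), coloured by log2 FPKM with values below 1 FPKM raised to 1. Bright rows of Col1a2, Col1a1 and Col5a2 cross all 16 mMSCs and mMSC-PC, while HL1cm and HL1cm-PC are bright for Col4a3 and other type IV chains.

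Fibrillar collagens made up 63.7% to 89.7% of the collagen FPKM in mMSCs (median 82.8%) and 0% to 5.12% in HL1cm, without overlap. Basement membrane collagens took the reverse place, with 2.75% to 24.7% (median 6.43%) in mMSCs and 80.4% to 94.6% in HL1cm. A filter of 1 FPKM in at least 2 of the 21 single cells left 22 collagen genes, of which 12 were higher in mMSCs by 1 or more on the log2 scale and 3 were lower. Over the 11850 genes that passed the same filter, 21.4% were higher and 21.6% were lower. The 12 higher genes were 6 fibrillar, 1 basement membrane and 5 other collagens, and all 3 lower genes were basement membrane collagens. The median difference was 1.48 over the 22 collagens that passed the filter and 0.08 over the 11850 genes, and over all 43 collagens, most of them at or near 0 in both cell types, it was 0.05. The value over the 22 is a description, since a gene that is high in only 1 cell type passes the filter through that type. Nearest to the boundary were Col5a3 at 1.32, within its SD of 1.42 between mMSCs, and Col16a1 at 0.64.

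**Figure D2:**
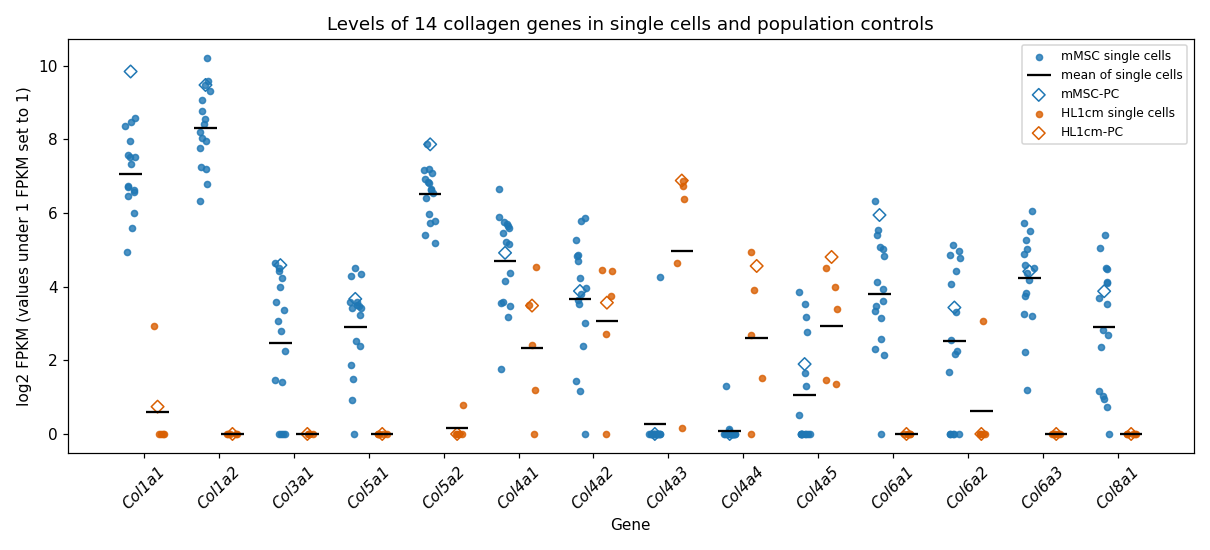
Levels of the 14 collagen genes with a mean of at least 10 FPKM in mMSC or HL1cm, or 10 FPKM in a population control, as log2 FPKM with values below 1 FPKM raised to 1 (dots, single cells; lines, means; diamonds, population controls). The ranges of the 2 cell types do not overlap for Col1a1, Col1a2, Col5a2 or Col6a3, whereas those of Col4a1, Col4a2 and Col4a5 do. The share of all genes without overlap was not computed.

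The chains of type I collagen, the main fibre of bone and tendon, led the fibrillar group. Col1a2 (chr6:4504814-4541544 in mm10, plus strand) ranged from 80.3 FPKM in mMSC3 to 1194 FPKM in mMSC2, with a median of 317 FPKM, and was 0 in each of the 5 HL1cm as well as HL1cm-PC. Its mean log2 level was 8.31 ± 1.08 (SD, 16 cells), which is also the difference from HL1cm. The size of this difference depends on raising values below 1 FPKM to 1. It was 11.63 with values under 0.1 FPKM raised to 0.1. Col1a1 (chr11:94936224-94953042, plus strand) ranged from 30.8 FPKM in mMSC4 to 385 FPKM in mMSC2, with a median of 134 FPKM. In HL1cm it was at 7.61 FPKM in HL1cm5 and listed at 0 in the other 4 cells. The difference for Col1a1 was 6.48, from means of 7.06 ± 1.04 (SD, 16 cells) and 0.59 ± 1.31 (SD, 5 cells). Both chains were thus present in every mMSC, and no HL1cm held the pair. Col1a2 was the highest collagen of 14 of the 16 mMSCs, the exceptions being mMSC3 (Col5a2, 101 FPKM) and mMSC16 (Col1a1, 354 FPKM). It was also above Col1a1 in 14 of the 16 cells, with a ratio of Col1a2 to Col1a1 from 0.84 in mMSC3 to 7.11 in mMSC4 and a median of 2.65. The population control had the opposite order, with 714 FPKM of Col1a2 and 920 FPKM of Col1a1, a ratio of 0.78. Among the genes of a cell other than those of small RNAs, Col1a2 ranked between 86 and 1162 by FPKM in mMSCs.

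Types III and V are the partners of type I in mixed fibrils, and type V sets fibril width. Col5a2 (chr1:45374321-45503282, minus strand) was the steadiest collagen of mMSCs that was found in every cell, from 36.4 FPKM in mMSC1 to 236 FPKM in mMSC6, with a median of 100.3 FPKM. Its log2 values had an SD of 0.73, against 1.04 and 1.08 for the type I chains. In HL1cm it was at 1.71 FPKM in HL1cm1 and listed at 0 elsewhere, and the difference was 6.36. Its chain partner Col5a1 was 0 to 22.7 FPKM in mMSCs (listed at 0 in mMSC4) and listed at 0 in all HL1cm, a difference of 2.91. Col5a2 exceeded Col5a1 in 16 of 16 mMSCs, by 4.80 to 53.3 times in the 15 cells with both. Col5a3, another type V chain, was above 0 in 9 mMSCs, at up to 16.7 FPKM in mMSC3.

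Col3a1 (chr1:45311538-45349706, plus strand), the chain of type III collagen of soft tissues, lies 24.6 kb from Col5a2 on the opposite strand. It was far lower than its neighbour in mMSCs, at 0 to 25.2 FPKM with a median of 7.62 FPKM, and listed at 0 in mMSC1, mMSC4 and mMSC12 and in all HL1cm. The difference between the cell types was 2.48. Of the cartilage fibrillar collagens, Col11a1 was found in 5 mMSCs (highest 11.9 FPKM, in mMSC5) and Col27a1 in 4 (highest 7.70 FPKM, in mMSC9). Col2a1, the main collagen of cartilage, was listed at 0 in every single cell and read 1.38 FPKM in mMSC-PC and 6.59 FPKM in HL1cm-PC.

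The type IV genes lie in pairs that are read away from each other, and the pairs are shown here because the results turn on which chains of type IV a cell held. Gene positions are from GENCODE M21, and sequences are RefSeq sequences of GRCm38.p6, the assembly of mm10. Col4a4 (chr1:82448423-82586849, minus strand) and Col4a3 (chr1:82586921-82722059, plus strand) are 71 bases apart. Col4a1 (chr8:11198423-11312826, minus strand) and Col4a2 (chr8:11312805-11449287, plus strand) overlap at their starts by 22 bases, and Col4a6 and Col4a5 on chromosome X are 1308 bases apart. The first sequence is all of the stretch between the starts of Col4a4 and Col4a3 (chr1:82586850-82586920, minus strand), and the second is the overlap of Col4a1 and Col4a2 (chr8:11312805-11312826, plus strand). The next ends shortly before the start of Col4a2 (chr8:11312770-11312799, plus strand) and inside the Col4a1 gene, and the last lies before the RefSeq start of Col1a2 (chr6:4505497-4505526, plus strand), inside the GENCODE gene. Capitals mark the letters CCAAT, a motif of many promoters.
Col4a4 to Col4a3: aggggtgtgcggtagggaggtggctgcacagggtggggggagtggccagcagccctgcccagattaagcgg
Col4a1 and Col4a2 overlap: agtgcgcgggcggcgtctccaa
Col4a2 upstream: tccCCAATttgttggcgctgccccctcccc
Col1a2 upstream: aaaagaatggaaCCAATttaagaagccccg

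Promoter windows, of 250 bases before to 50 bases after the start, were found for 35 of the 43 genes, and Col1a1, Col2a1, Col4a3, Col5a2, Col9a3, Col12a1, Col14a1 and Col22a1 had no entry. The letters CCAAT were searched on both strands in the 250 bases before the start, as were TATAAA and GGGCGG. The first was found for 13 of the 35 genes and in 33.8% of all 32851 windows, TATAAA for 5 genes and in 12.4% of windows, and GGGCGG for 21 genes and in 32.7% of windows. Col4a1 and Col4a2 both held CCAAT, as did Col1a2 and Col4a5, and Col3a1 held TATAAA. None of the 3 motifs was found before Col4a4. A match is a description of these letters and was not tested as a site.

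The chains of type IV differed in direction between the sets. Col4a3 was the collagen with the largest difference towards HL1cm, at 24.9, 107, 1.12, 116 and 82.8 FPKM in HL1cm1 to HL1cm5 and at 118 FPKM in HL1cm-PC. In mMSCs it was above 0 in 4 of 16 cells, at 19.3 FPKM in mMSC3 and under 1 FPKM in mMSC1, mMSC10 and mMSC13, and at 0.75 FPKM in mMSC-PC. HL1cm3 lay below mMSC3, and the other 4 HL1cm lay above every mMSC. The difference was -4.69 (-5.89 without HL1cm3), from means of 0.27 ± 1.07 (SD, 16 cells) and 4.96 ± 2.82 (SD, 5 cells). Col4a3 was the highest collagen of 4 of 5 HL1cm, and Col4a5 (10.6 FPKM) that of HL1cm3. HL1cm3 was also 1 of the 3 HL1cm libraries in which small RNA genes held most of the FPKM. The 2 HL1cm libraries without that excess, HL1cm2 and HL1cm4, had the highest Col4a3 values, and the part of the excess in the spread was not tested.

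Within HL1cm, its partners Col4a4 and Col4a5 were below Col4a3 in every cell but HL1cm3, where both were above it. Their differences had the same direction as that of Col4a3. Col4a4 was at 2.85, 30.5, 6.42, 0.64 and 15.05 FPKM in HL1cm1 to HL1cm5 and at 23.6 FPKM in HL1cm-PC. Among mMSCs it was above 0 in mMSC3, mMSC5 and mMSC6, at no more than 2.47 FPKM, and the difference was -2.52. The order of levels across HL1cm was not that of Col4a3, since HL1cm4 had the highest Col4a3 and the lowest Col4a4. Col4a5 was at 22.7, 15.9, 10.6, 2.54 and 2.74 FPKM in HL1cm1 to HL1cm5 and at 28.0 FPKM in HL1cm-PC. It was above 0 in 9 mMSCs, at up to 14.5 FPKM in mMSC4, so that the cell types overlapped, and the difference was -1.89. Col4a6 was found in HL1cm5 (5.74 FPKM) and, under 1 FPKM, in HL1cm1. All 3 of Col4a3, Col4a4 and Col4a5 reached 1 FPKM in 4 of 5 HL1cm and in 1 of 16 mMSCs, mMSC3. In mMSC3 all 10 cardiomyocyte markers were listed at 0, and the source of these type IV transcripts in that cell was not tested.

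The ubiquitous chains were found in both cell types. Col4a1 ranged from 3.41 FPKM in mMSC8 to 100.2 FPKM in mMSC16, with a median of 36.4 FPKM. In HL1cm1 to HL1cm5 it was at 0, 23.1, 5.34, 2.29 and 11.4 FPKM, which overlaps the lower part of the mMSC range, and the difference was 2.37. Col4a2 was at 0 in mMSC9 and up to 58.2 FPKM in mMSC14, with a median of 14.8 FPKM, and at 6.56, 13.5, 0, 21.38 and 22.05 FPKM in HL1cm1 to HL1cm5. With a difference of 0.59 and SDs of 1.69 and 1.86, Col4a2 was within the spread between cells, and it turned to -0.18 without HL1cm3 and to -0.52 without the 6 libraries rich in small RNA genes. Because the genes overlap at their starts and the libraries did not mark strand, reads in those 22 bases cannot be assigned to either gene.

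Per cell, Col4a1 and Col4a2 together held 62.8% to 100% of the type IV FPKM in mMSCs (median 98.1%) and 90.9% in mMSC-PC. In HL1cm1 to HL1cm5 they held 11.3%, 19.2%, 22.8%, 16.52% and 23.9%, and 11.9% in HL1cm-PC. The 2 ranges did not overlap, although Col4a1 and Col4a2 themselves did. Col4a3 and Col4a4 supplied 32.2% to 81.7% of the type IV FPKM in HL1cm and 0% to 16.7% in mMSCs. Because alpha-3 to alpha-5 chains are known from epithelial basement membranes, epithelial markers were set beside them. Of 6 markers, 3 reached 1 FPKM in at least 1 HL1cm, with a sum of 24.6 to 312 FPKM that was mostly Krt18, and Cdh1, Krt5 and Krt14 were listed at 0. In mMSCs the sum was 0 to 7.33 FPKM. The part of these genes in the type IV difference was not tested. Of the other basement membrane collagens, Col18a1, the source of endostatin, was found in 3 mMSCs (highest 16.7 FPKM, in mMSC10) and not in single HL1cm, with 1.84 FPKM in mMSC-PC and 2.27 FPKM in HL1cm-PC.

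**Figure D3:**
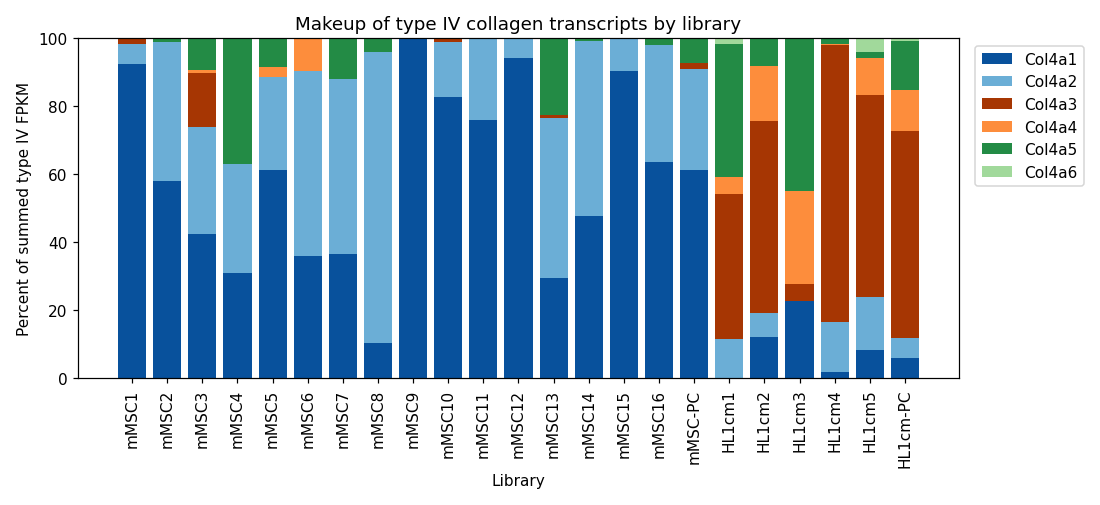
Share of each type IV chain in the summed type IV FPKM of the 23 libraries, as stacked bars in percent. Col4a1 and Col4a2 (blue) fill 62.8% to 100% of the bars of single mMSCs and 11.3% to 23.9% of those of single HL1cm, where Col4a3 (dark brown) is the largest part in 4 of 5 cells.

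Among the other collagens, the type VI chains Col6a3 and Col6a1 had the highest means in mMSCs. Col6a3 was at 2.30 to 66.2 FPKM (lowest in mMSC8, highest in mMSC10) and found in every mMSC, and Col6a1 was at 0 in mMSC4 and up to 80.4 FPKM in mMSC16. Both were 0 in each HL1cm and its population control, and the differences were 4.23 and 3.81. Col6a2 was at 0 in mMSC3, mMSC4, mMSC12, mMSC14 and mMSC15 and up to 35.1 FPKM in mMSC10. It was the 1 type VI chain seen in HL1cm, at 8.32 FPKM in HL1cm1 and 0 in the other 4 cells. Its difference was 1.90, within its SD of 2.04 between mMSCs. All 3 chains, which are built into 1 molecule, reached 1 FPKM in 11 of 16 mMSCs and in no HL1cm.

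Col8a1, a short-chain network collagen of vessel walls, was at 0 in mMSC1 and up to 42.2 FPKM in mMSC15 and listed at 0 in HL1cm, a difference of 2.91. Col7a1, the anchoring fibril collagen of skin, was higher in mMSCs by 1.65, at up to 13.9 FPKM in mMSC11. Col12a1, which decorates type I fibrils, was found in both cell types. It was at 0 to 14.4 FPKM in mMSCs (median 3.58 FPKM) and at 0, 11.0, 0.40, 10.9 and 1.16 FPKM in HL1cm1 to HL1cm5, and the difference of 0.60 was within the SD of 1.48 between mMSCs. It was 1.11 without HL1cm2 or without HL1cm4, and it turned to -1.30 without the 6 libraries rich in small RNA genes, 3 of them mMSC and 3 HL1cm. Col16a1 (5 mMSCs, up to 7.07 FPKM) and Col20a1 (3 mMSCs, up to 1.77 FPKM) were not seen in single HL1cm, although HL1cm-PC held Col16a1 at 3.85 FPKM. Single cells held Col10a1 (mMSC14), Col17a1 (mMSC4), Col28a1 (mMSC3) and Col9a3 (HL1cm3), each at no more than 6.46 FPKM and in no other library. Col6a5 in mMSC7 and Col19a1 in HL1cm1 stayed under 1 FPKM.

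The population controls were then compared, as 1 library of each cell type without a replicate. At 1 FPKM in either control, 12 of 21 collagens were higher in mMSC-PC by 1 or more on the log2 scale and 4 were lower, against 20.5% and 39% of 11509 genes. Since the median over all genes was -0.54 here, the higher collagens went against the overall shift. The largest differences were 9.48 for Col1a2, 9.10 for Col1a1 and 7.87 for Col5a2, and Col4a3 (-6.88), Col4a4 (-4.56) and Col4a5 (-2.91) were again lower. Col2a1 (-2.26) was the added lower gene, and Col12a1 (2.08) was added to the higher ones while Col5a3 (0.81) left them. In bulk samples, fewer cells of a type and less RNA per cell cannot be told apart.

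Against the mean FPKM of the 16 single mMSCs, 4 of the 20 collagens at 1 FPKM in either were higher in mMSC-PC by 1 or more on the log2 scale and 1 was lower. Over 10996 genes 27.1% were higher and 19.4% lower, so the count of higher collagens was not above that background, and the median was 0.14. The higher genes were Col1a1 (2.46), Col6a1 (1.48), Col3a1 (1.33) and Col5a2 (1.19), and Col5a3 (-1.02) was lower. Col1a1 in mMSC-PC, at 920 FPKM, lay above the highest single cell. Col1a2 differed by 0.81 and lay inside the range of single cells.

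Collagen levels differed between single mMSCs. Besides the SD of 0.73 for Col5a2, the log2 SD was 1.30 for Col4a1, 1.29 for Col6a3, 1.59 for Col6a1, 1.77 for Col3a1 and 2.04 for Col6a2. Among genes of a mean log2 level within 0.5, these SDs were at percentile 27.9 for Col5a2 and between 31.6 and 43.6 for Col6a3, Col4a1, Col6a1 and Col3a1. They were at percentile 66.8 for Col6a2, 79.2 for Col1a1 and 89.9 for Col1a2. From the lowest to the highest cell, Col1a2 spanned 14.9 times, Col1a1 12.5 times and Col5a2 6.46 times. The summed collagen level had an r of 0.15 with the number of genes at 1 FPKM and of -0.37 with the share of small RNA genes, as a description over 16 cells.

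Chains that share a molecule were set beside each other across the 16 mMSCs, for which no separate cultures are named and which share a chip, so that r is given as a description. Col1a1 and Col1a2 had an r of 0.73, and Col1a2 was number 11 of 4678 genes in likeness to Col1a1. The cells mMSC2, mMSC7 and mMSC10 were high for both chains. Col6a1 and Col6a2 had an r of 0.63, whereas Col6a1 with Col6a3 gave 0.30 and Col6a2 with Col6a3 gave 0.02 (-0.06 without the 6 libraries rich in small RNA genes). Col5a1 and Col5a2 gave 0.37, and 0.62 on TPM over all genes. Col5a2 was number 380 of 4678 genes in likeness to Col5a1. Col6a3 was number 613 of 4678 in likeness to Col6a1 and number 2008 of 4679 in likeness to Col6a2. Likewise, Col4a2 was number 1449 of 4678 in likeness to Col4a1. The type IV pair that overlaps at its start, Col4a1 and Col4a2, gave 0.15 (0.31 as Spearman's rho and 0.06 without mMSC9 and mMSC15), and the ratio of Col4a1 to Col4a2 ran from 0.12 in mMSC8 to 16.1 in mMSC12 and mMSC1. Col3a1 and its neighbour Col5a2 gave 0.11, and Col1a2 with Col3a1 gave -0.11. Col12a1, which binds type I fibrils, had an r of 0.70 with Col1a1. The highest likeness to Col1a1 of all 4678 genes was that of Sparc, a collagen-binding matrix protein, with an r of 0.91, and Serpinh1, the collagen chaperone, was number 89 with 0.56. Sparc was also the gene most like Col1a2 (r of 0.75), followed by Col1a1, Optn, Fkbp7 and Bmp1, and Esyt2 (r of 0.84), Pdxdc1 and Tgfb1i1 were the genes most like Col4a1.

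**Figure D4:**
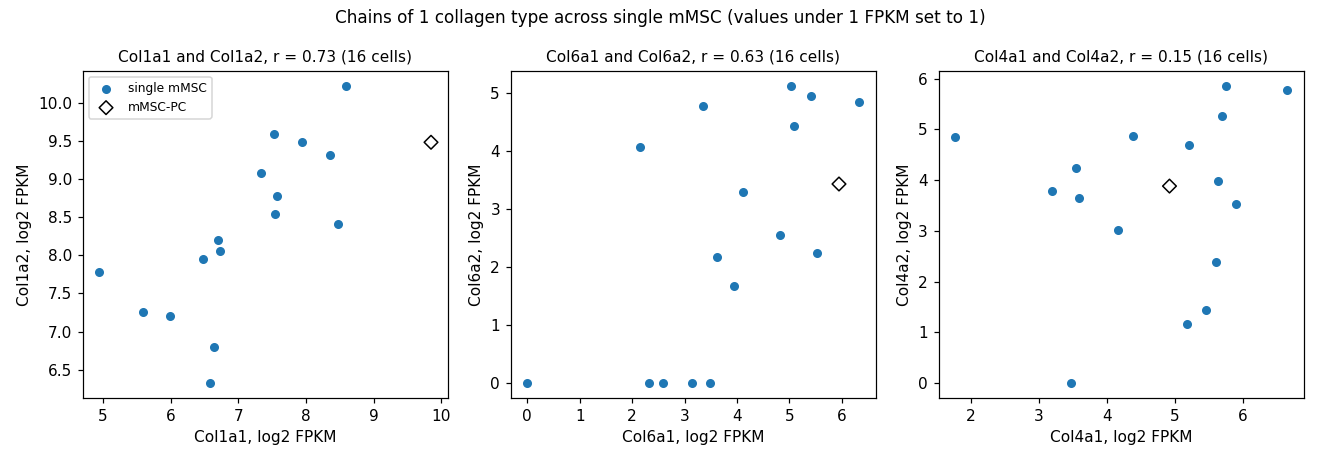
Chains of types I, VI and IV in single mMSCs (dots, 16 cells) and mMSC-PC (diamond), as log2 FPKM with values below 1 FPKM raised to 1. The cells line up for Col1a1 and Col1a2 (r of 0.73) and scatter for Col4a1 and Col4a2 (r of 0.15).

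The genes that make, process and read collagen were taken from a list of 62, of which 49 passed the filter. Of these, 25 were higher in mMSCs by 1 or more on the log2 scale and 8 were lower, against 21.4% and 21.6% of all genes that passed. The lysyl oxidases, which cross-link fibrils, had 3 of 5 genes higher and none lower, and all 5 passed the filter. Lox was at 43.6 to 252 FPKM in mMSCs and at 0 to 2.08 FPKM in HL1cm (6.76), and Loxl3 (4.58) was next. Among fibril-associated proteoglycans and Sparc, 4 of 6 passed the filter, 2 were higher and 1 was lower. Bgn, a small proteoglycan of bone, had the largest difference of the list (9.32), at 359 to 1540 FPKM in mMSCs and at most 1.97 FPKM in HL1cm. Sparc was abundant in both (1.09, but 0.74 without HL1cm3, 0.98 without HL1cm5 and 0.39 without the 6 libraries rich in small RNA genes). Ogn, another small proteoglycan, was lower in mMSCs (-2.31), a difference within its SD of 2.52 between mMSCs. Dcn and Lum, named after their values were seen, were listed at 0 in all 23 libraries.

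Of 13 genes for hydroxylation and glycosylation inside the cell, 11 passed the filter, 3 were higher and 4 lower, against the same 21.4% and 21.6% of all genes. Plod3 (3.90) and Glt25d1 (3.34), which together build the sugar side groups of hydroxylysine, were higher in mMSCs, and the prolyl hydroxylase subunit P4ha3 (-2.40) had the largest difference the other way. Of 13 genes for folding and secretion, all of which passed, 7 were higher and 1 lower. Creb3l1 (5.39), a transcription factor for type I collagen in bone cells, and the foldase Fkbp7 (4.88) were the highest, and Tmem38b, an ion channel of the endoplasmic reticulum, was lower (-1.55, but -0.30 without the 6 libraries and -0.91 on TPM over all genes). The chaperone Serpinh1 was at 9.87 to 227 FPKM in mMSCs and at 18.9 to 140 FPKM in HL1cm, a difference of 0.59 that was within the SD of 1.22.

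Of 8 genes for removal of propeptides outside the cell, 6 passed the filter, 4 were higher and 1 lower, with 21.4% and 21.6% of all genes as the background. Bmp1 (4.34), the C-proteinase of fibrillar procollagens, and its enhancer Pcolce (2.00) were higher. Pcolce2 (-1.37, but -0.72 without HL1cm2) was lower, a difference within its SD of 1.86 between mMSCs. Of 10 receptors, 6 passed, 3 were higher and 1 lower. The integrin chains Itga11 (2.42) and Itgb1 (2.03), which together bind type I collagen, were higher in mMSCs, and the collagen-binding kinase Ddr1 (-2.44) was lower. Of 7 collagen-degrading proteases, 4 passed, 3 were higher and none lower, led by the gelatinase Mmp2 (6.11) and its membrane-bound activator Mmp14 (4.36).

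**Figure D5:**
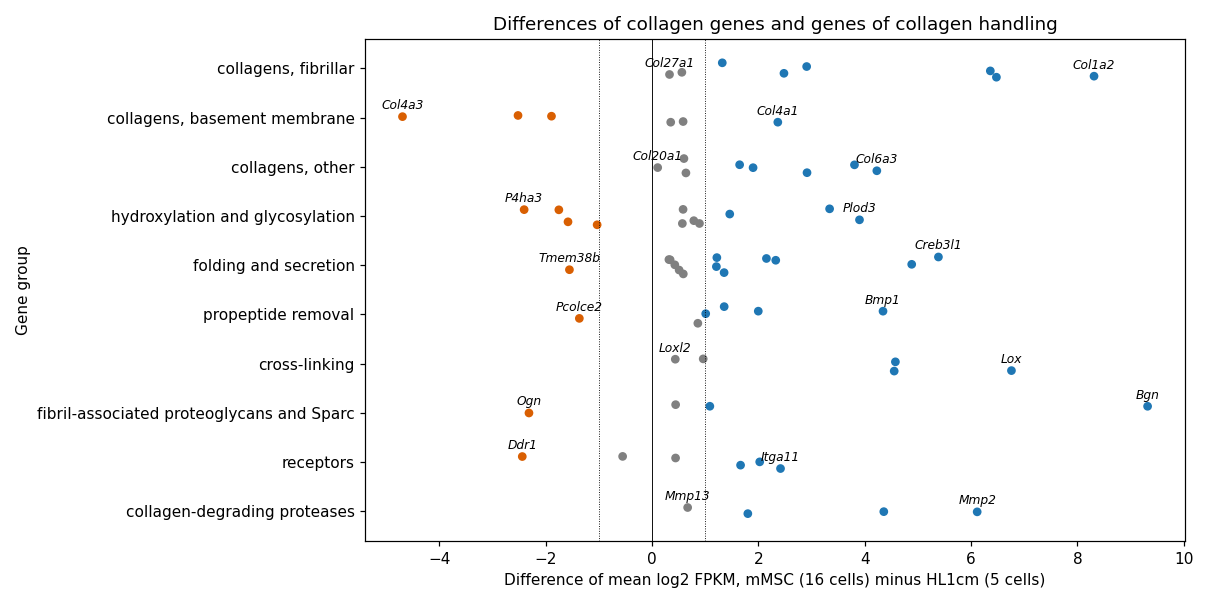
Difference of mean log2 FPKM between mMSC (16 cells) and HL1cm (5 cells) for collagens by class and for 7 groups of collagen-handling genes, for genes that passed the filter (blue, higher in mMSC by 1 or more; orange, lower by 1 or more; grey, neither). Fibrillar collagens, cross-linking enzymes and proteases have no gene lower by 1 or more, and basement membrane collagens have 3.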

How the data were processed

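Single cells were captured on a Fluidigm C1 chip, with mMSCs and HL1cm on the same device, and cDNA was made with SMARTer chemistry. The deposited FPKM values were made by the authors, whose notes name TopHat2 2.0.12, Cufflinks 2.2.1 and the mouse build mm10. No rescaling was applied to them. The number of reads behind each FPKM value is unknown, since no table of reads per gene was used, and no count model, interval or floor was computed. By the study's alignment statistics mMSC9 and mMSC15 had the fewest aligned pairs. No 2 libraries held identical values. In 5 genes, 15 mMSCs were at 100 FPKM or more and 1 was at 0, so a listed 0 can be a failed estimate.

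Log2 values were taken after raising anything below 1 FPKM to 1. Genes that reached 1 FPKM in 2 or more of 21 single cells entered the comparison of mMSC and HL1cm, and a difference of 1 on the log2 scale (of means) was called. Population controls were compared where either value was at 1 FPKM or more. No test was made. The calculation was tested on simulated data. Pearson's r was taken across the 16 mMSCs, and likeness was ranked among genes that reached 1 FPKM in 12 or more of them. Described with values are collagens at a mean of 10 FPKM or more in a cell type or a control, and for each group of handling genes the 2 of largest positive and the 1 of largest negative difference. Other collagens, handling genes and markers were named after their values were seen. The members and lists were chosen with earlier results of these data known. Gene positions came from GENCODE M21 and promoter windows from RefSeq (GRCm38.p6). Python 3.11.15, pandas 2.3.3 and numpy 2.4.6 were used. Each result was recomputed under other settings (39 combinations of result and setting, and 7 more chosen after seeing the data).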

Additional observations from a re-analysis of the deposited data

Results flagged for a closer look

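In HL1cm, 12 measures were checked for a cell that stood apart from the other 4, and 3 did. Each of the 3 was a gene seen in 1 HL1cm and listed at 0 in the others. Values below 1 FPKM were raised to 1 for this check of genes. With 4 values at 0 any value above 1 FPKM therefore stands apart, so the usual rate of 1 in 20 by chance does not apply. Col1a1 was at 7.61 FPKM in HL1cm5, Col5a2 at 1.71 FPKM in HL1cm1 and Col6a2 at 8.32 FPKM in HL1cm1.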

How the results depend on the processing

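No paired analysis was possible because no test was made and the shared numbers of mMSC and HL1cm only name single cells. Across the alternatives no difference of a described collagen that was called changed sign. The 12 higher and 3 lower collagens ranged from 9 to 17 and from 2 to 4. The 17 came with values under 0.1 FPKM raised to 0.1, where 32.2% of all genes that passed were higher. There the differences of collagens listed at 0 in most cells of 1 cell type grew. Examples are Col6a3 (4.23 to 7.55), Col5a1 (2.91 to 6.02) and Col4a3 (-4.69 to -7.28). The size of such differences was thus set in part by the limit chosen. The 9 and the 2 came with a difference of 2 or more called. The 4 came without the 6 libraries rich in small RNA genes, where 26.15% of all genes that passed were lower. Of 559 values recomputed, 6 of the 119 that answer a comparison moved, as did 30 of the 440 others. The difference of a gene was said to move when it changed by more than its SD between mMSCs. Many of these values could not move. Another filter, limit or grouping leaves the difference of a gene as it was, and leaving out an HL1cm leaves mMSC medians as they were. The tally is therefore no measure of stability. With a difference of 2 or more called, 15 genes of the handling list were higher and 3 lower. At that limit 8.77% of all genes that passed the filter were higher and 9.27% lower. On TPM over all genes, which moved the median difference of all genes between mMSC-PC and single mMSCs from 0.14 to 0.62, 0 collagens were lower in mMSC-PC. At 10 FPKM or more, 18 collagens were found in any mMSC and 6 in any HL1cm, and the same counts over all genes were not computed. The median collagen share of all FPKM in HL1cm was 0.00796%, 0.0235% without small RNA genes and 0.0245% without the 6 libraries rich in them (added after seeing the data), while that of mMSCs was 0.0879%, 0.120% and 0.109% under the same settings. Leaving out each HL1cm in turn gave 12 to 13 higher and 3 lower collagens (Col12a1 was the added gene without HL1cm2 or HL1cm4), 23 to 27 higher and 6 to 8 lower handling genes, a collagen share of 0.00549% to 0.0154%, and 17.9% to 21% for Col4a1 and Col4a2 in type IV. TPM over all genes also moved the median difference of all genes between mMSC and HL1cm from 0.08 to 0.24. The r of Col1a2 with Col3a1 was 0.10 on TPM and those of Col3a1 with Col5a2 and of Col6a2 with Col6a3 were -0.09 and -0.06 without the 6 libraries, so these had no stable direction. The r of Col4a1 with Col4a2 ranged from 0.06 to 0.31 and that of Col1a1 with Col1a2 from 0.71 to 0.84. The causes were not tested. The number of reads behind each gene was unknown, so a collagen listed at 0 may be present below detection.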
